A study of Homo sapiens with 9 samples.

Results

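The aryl hydrocarbon receptor (AHR) axis was followed under cigarette smoke condensate in ARPE-19, a long-established line of human pigment epithelium from the retina. The axis was defined by name as 6 genes, CYP1A1, CYP1B1, AHR, ARNT, AHRR and TIPARP, taken from probe sets that name 1 gene. Of these 6 genes, 4 were measured alone among 14207 genes: CYP1A1, CYP1B1, AHR and ARNT, each on 1 probe set. AHRR lay only on a probe set that also names PDCD6 and PDCD6P1, and TIPARP only on one that also names TIPARP-AS1, so neither has a value here. The rule allowed the highest mean over the arrays to choose among several probe sets, which none of the 4 genes needed. That CYP1A1 and CYP1B1 were higher under condensate was already known when the genes were put together. Those differences therefore describe these arrays and are not independent evidence.

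The study holds 9 arrays in 3 dose groups of 3 arrays: ARPE-19 cells labelled as vehicle control, cells given 100 µg/ml condensate and cells given 250 µg/ml condensate. All groups were grown to confluence with serum and then kept in medium with albumin, and the condensate was a commercial DMSO stock of 40 mg/ml with 6% nicotine, per the labels. How long the cells were exposed is not stated in any source used here. Arrays carry the numbers 1 to 3 within a group, with no label naming separate cultures. The p-values therefore reflect only how far these samples spread, and that spread may be technical. RNA came from whole cultures, so a change in the number of responding cells and a change in RNA per cell cannot be told apart.

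AHR is a ligand-activated transcription factor of the bHLH-PAS family that waits in the cytosol in a chaperone complex. Polycyclic aromatic hydrocarbons, which tobacco smoke contains, are among its ligands. With a ligand bound it enters the nucleus, pairs with ARNT and binds a response element whose core is GCGTG. CYP1A1 and CYP1B1 encode P450 monooxygenases that oxidise such hydrocarbons and are its best known targets. AHRR, a repressor that competes for ARNT, and TIPARP, a mono-ADP-ribosyltransferase, are targets that limit the receptor. In the eye, CYP1B1 is best known as a gene of inherited congenital glaucoma.

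The promoters show where the core of the response element stands close to the start of a gene with a large difference and of genes with small ones. RefSeq windows of GRCh38.p14, from 250 bases before the gene's start to 50 bases after it, were matched for 3 of the 4 genes: CYP1A1 at chr15:74725479-74725778 on the minus strand, AHR at chr7:17298402-17298701 on the plus strand, and ARNT at chr1:150876550-150876849 on the minus strand. Capitals mark GCGTG or its reverse complement CACGC, which do not overlap each other.
CYP1A1: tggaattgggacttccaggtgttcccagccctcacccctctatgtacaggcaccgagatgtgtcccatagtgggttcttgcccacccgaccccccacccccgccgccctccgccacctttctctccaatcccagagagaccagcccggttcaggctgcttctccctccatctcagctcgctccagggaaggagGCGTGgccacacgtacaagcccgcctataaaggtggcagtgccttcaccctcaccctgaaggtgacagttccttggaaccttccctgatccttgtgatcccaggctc
AHR: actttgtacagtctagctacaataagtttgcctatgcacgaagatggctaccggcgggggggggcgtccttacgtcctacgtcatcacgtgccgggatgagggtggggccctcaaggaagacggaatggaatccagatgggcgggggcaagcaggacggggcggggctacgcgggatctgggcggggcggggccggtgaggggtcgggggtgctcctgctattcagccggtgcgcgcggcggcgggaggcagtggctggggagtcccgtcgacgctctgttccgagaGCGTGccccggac
ARNT: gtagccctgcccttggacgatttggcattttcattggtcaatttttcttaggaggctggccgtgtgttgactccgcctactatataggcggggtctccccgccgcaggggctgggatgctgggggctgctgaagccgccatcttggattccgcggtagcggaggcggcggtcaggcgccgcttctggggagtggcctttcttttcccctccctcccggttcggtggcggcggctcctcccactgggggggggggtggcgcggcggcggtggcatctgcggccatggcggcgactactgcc
The CYP1A1 window held the motif 1 time, beginning at position -57 when the gene's start is position 0. The AHR window also held it 1 time, beginning at position 37, after the start, and the ARNT window held it 0 times. Among 35116 promoter windows of this length, 36.5% held the motif on either strand at least 1 time. A match of 5 letters is a description of these windows and not a binding site.

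Array quality touches the results below in 1 respect. On the first principal component over all genes, which held 38.3% of the variance, treated arrays with the numbers 1 and 2 fell between -24.5 and -21.0. Treated arrays with the number 3 stood apart from them, at 5.78 for 100 µg/ml and 4.28 for 250 µg/ml. Control replicate 2 was the farthest out at 45.4, with the other controls at 17.4 and 15.4. Control replicate 1 stood apart on the second component (19.4% of the variance) at 33.1, with all others between -21.3 and 16.03. Arrays within a group correlated at 0.970 or more. Of 13 measured retinal pigment epithelium markers, MITF, OTX2, KRT8, KRT18 and RDH5 lay above the array median on every array, while RPE65, BEST1 and TTR lay below the lower quartile on every array. The visual cycle isomerase gene RPE65 and the channel gene BEST1, which define mature pigment epithelium, were therefore near the bottom of the scale. Below the lower quartile on every array lay also 3 of 5 endothelial markers (PECAM1, CDH5 and TEK), 1 of 5 leukocyte markers (PTPRC), 2 of 6 fibroblast markers, 2 of 5 photoreceptor markers and 2 of 5 Müller glia and astrocyte markers. The leukocyte list's lysosomal gene CD68, the fibroblast list's receptor gene PDGFRB and the glial list's GLUL lay above the array median on every array.

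The first question was whether the target genes responded at each dose. CYP1A1 was among the dimmest genes of the 3 control arrays and near the middle of the scale in all 6 treated arrays. It lay above 9.6% to 11.2% of genes on the controls and above 51.1% to 61.4% on the treated arrays. Its log2 values were 2.68, 2.66 and 2.65 with vehicle, 5.21, 5.24 and 5.74 at 100 µg/ml, and 4.71, 4.98 and 5.37 at 250 µg/ml. Neither dose overlapped the controls, and array 3 was the highest of each dose. The controls lay below the lower quartile of their arrays, where the values of RMA, the summary method named by the submitters, are compressed.

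Log2 means for CYP1A1 were 2.67 ± 0.017 with vehicle, 5.40 ± 0.30 at 100 µg/ml and 5.02 ± 0.33 at 250 µg/ml (SD, n = 3 each). Against vehicle, CYP1A1 rose by 2.73 ± 0.19 log2 units at 100 µg/ml (SE, 95% interval 2.29 to 3.17, limma adjusted p = 0.0051 over all genes). On the deposited scale that is 6.64-fold, against a control signal that no detection call shows to be above background, so the fold is likely compressed. At 250 µg/ml it rose by 2.35 ± 0.19, or 5.10-fold with the same limit (interval 1.91 to 2.79, limma adjusted p = 0.0081). Without the arrays numbered 3 of both doses the differences were 2.56 and 2.18, with limma adjusted p of 0.0042 and 0.0029.

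**Figure D1:**
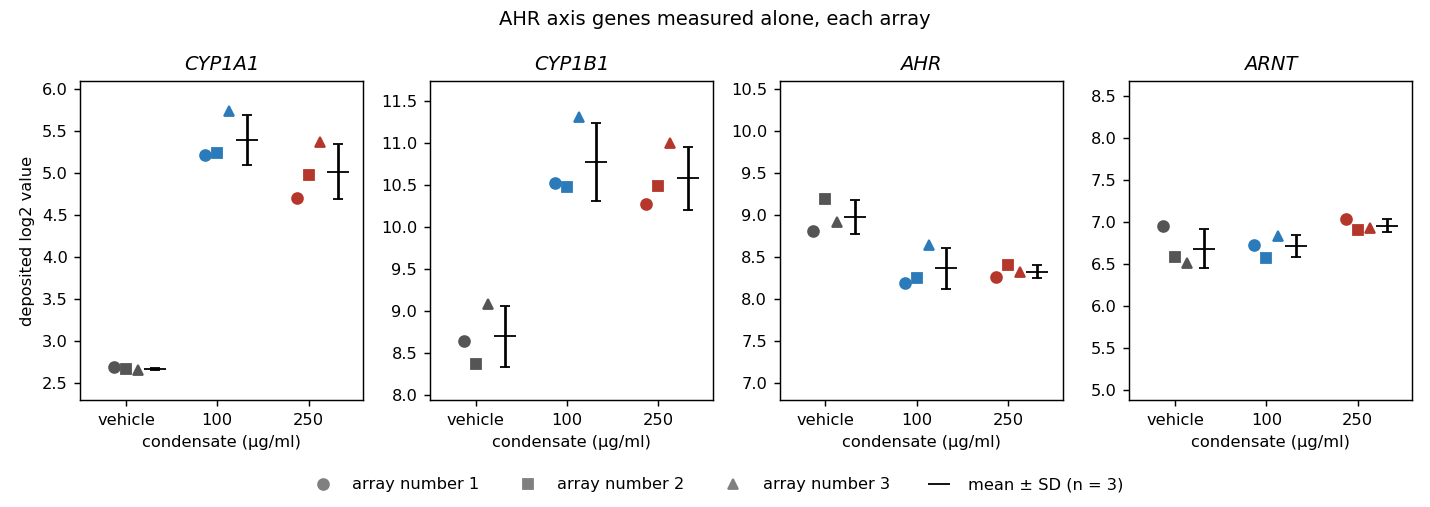
Deposited log2 value of each AHR axis gene (y axis, all panels spanning the same range of 3.8 log2 units) on each of 9 arrays by dose of condensate in µg/ml (x axis), with the marker giving the array number and the bar the mean ± SD of 3 arrays. CYP1A1 and CYP1B1 lie above every control at both doses and AHR lies below every control, while ARNT overlaps the controls.

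CYP1B1 showed the same order of groups, and unlike CYP1A1 it was well above the bottom of the scale in the controls. Its log2 values were 8.64, 8.37 and 9.09 with vehicle, 10.530, 10.476 and 11.306 at 100 µg/ml, and 10.270, 10.485 and 10.999 at 250 µg/ml. Both doses lay above every control, and array 3 was the highest of each of the 3 groups.

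The CYP1B1 difference at 250 µg/ml was 1.88 ± 0.29, or 3.69-fold (SE, interval 1.23 to 2.54, limma adjusted p = 0.043), and passed the threshold of 0.05. At 100 µg/ml the difference was 2.07 ± 0.29, or 4.2-fold (interval 1.41 to 2.73), with a limma adjusted p of 0.071 that missed it. The unadjusted p ran the other way, at 7.0e-05 for 100 µg/ml and 1.4e-04 for 250 µg/ml, so the side of the threshold turned on the adjustment over all genes. The call at 250 µg/ml was lost without control replicate 1 (adjusted p = 0.061), control replicate 2 (0.082), CSC_100 replicate 1 (0.081), CSC_100 replicate 2 (0.071), CSC_250 replicate 1 (0.107), CSC_250 replicate 2 (0.179) or CSC_250 replicate 3 (0.065). At 100 µg/ml a call was gained without control replicate 3 (0.045). Over these settings the difference itself stayed between 1.68 and 2.08 at 250 µg/ml and between 1.80 and 2.26 at 100 µg/ml.

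Of the 4 genes, 1 passed the threshold at 100 µg/ml and 2 at 250 µg/ml, all higher. At 100 µg/ml 0.0633% of all genes passed, 0.0563% higher and 0.00704% lower, and at 250 µg/ml 0.549% passed, 0.387% higher and 0.162% lower. The split at 250 µg/ml moved with the scaling: 55 of 78 calls were higher as deposited, 82 of 153 with arrays centred on their median and 65 of 129 after quantile normalization. Both doses share the same controls, so the results of the doses are not independent of each other. The arrays of treated and control groups did not overlap for 3 of the 4 genes at either dose, against 18.3% of all genes at 100 µg/ml and 22.9% at 250 µg/ml. These 3 were CYP1A1 and CYP1B1, both higher, and AHR, lower. Of all genes 6.41% were higher without overlap and 11.9% lower at 100 µg/ml, and 8.61% higher and 14.3% lower at 250 µg/ml.

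The receptor itself went the other way from its targets without passing the test. AHR values were 8.80, 9.19 and 8.92 with vehicle, 8.19, 8.25 and 8.64 at 100 µg/ml, and 8.25, 8.40 and 8.32 at 250 µg/ml. Every treated array lay below the lowest control, and CSC_100 replicate 3 was the closest to it. The difference was -0.61 ± 0.15 at 100 µg/ml (interval -0.96 to -0.27, limma adjusted p = 0.20) and -0.65 ± 0.15 at 250 µg/ml (interval -0.99 to -0.30, limma adjusted p = 0.090). These correspond to levels 0.655 and 0.638 times those of the controls. AHR passed in 0 of 19 alternative settings at either dose, and its difference was negative in all of them.

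ARNT, the nuclear partner that AHR shares with hypoxia-inducible factors, differed least. Its values were 6.95, 6.59 and 6.52 with vehicle, 6.73, 6.58 and 6.84 at 100 µg/ml, and 7.04, 6.90 and 6.93 at 250 µg/ml. Control replicate 1 was the highest control and overlapped both doses. The difference was 0.03 ± 0.14 at 100 µg/ml (interval -0.28 to 0.34, limma adjusted p = 0.95) and 0.27 ± 0.14 at 250 µg/ml (interval -0.04 to 0.58, limma adjusted p = 0.35). The interval at 100 µg/ml leaves room for a level between 0.822 and 1.26 times that of the controls.

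**Figure D2:**
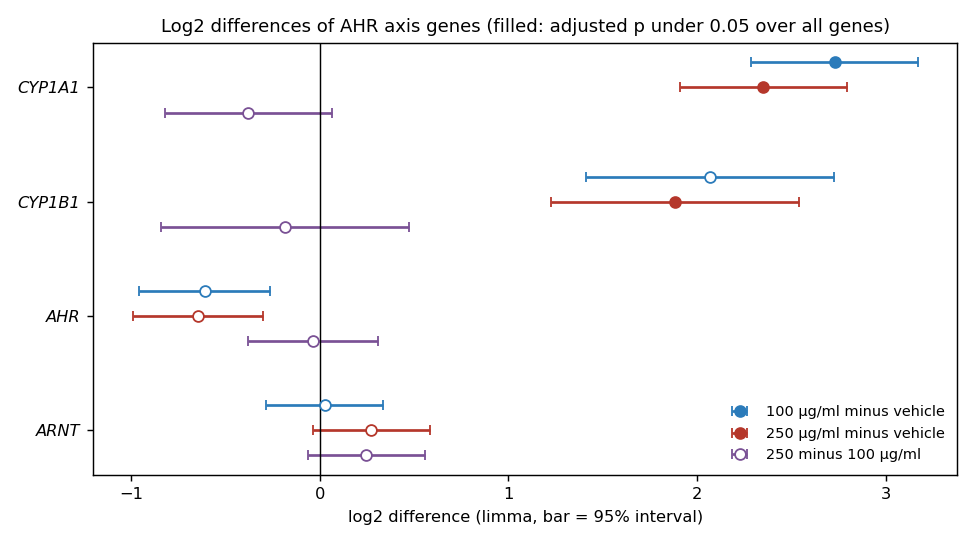
Log2 differences (x axis) of CYP1A1, CYP1B1, AHR and ARNT for 100 µg/ml minus vehicle, 250 µg/ml minus vehicle and 250 minus 100 µg/ml, from limma on 9 arrays with 95% intervals as bars; filled points passed an adjusted p of 0.05 over all genes. The filled points are CYP1A1 at both doses and CYP1B1 at 250 µg/ml, and all intervals for 250 minus 100 µg/ml include 0.

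The second question was whether the higher dose gave more. None of the 4 genes passed between 250 and 100 µg/ml with limma, as was true of all 14207 genes (0.0% passed, and 262 genes, or 1.84%, had an unadjusted p under 0.05). Of the 4 genes 0 had an unadjusted p under 0.05. CYP1A1 was lower at 250 than at 100 µg/ml by -0.38 ± 0.19 log2 units (interval -0.82 to 0.06, limma adjusted p = 1.0). The level at 250 µg/ml was thus 0.769 times that at 100 µg/ml, with an interval of 0.566 to 1.04. An increase of more than 1.04-fold at the higher dose lies outside that interval, and a drop of up to 0.566 times lies inside it. The interval rests on a spread shared with the controls, whose SD was 0.017 beside 0.30 at 100 µg/ml and 0.33 at 250 µg/ml. With only the 6 treated arrays the SE was 0.22, so the bounds would be wider.

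For arrays of the same number, the deviations from the group means correlated between the doses at 0.44 to 0.68, which pairs them by the data and not by the labels. Within numbers 1, 2 and 3, CYP1A1 at 250 µg/ml differed from 100 µg/ml by -0.50, -0.26 and -0.37 log2 units. It was therefore lower at 250 µg/ml in 3 of 3 numbers, although the groups overlapped. CYP1B1 differed by -0.26, 0.01 and -0.31, so it was lower in 2 of 3 numbers, with a group difference of -0.19 ± 0.29 (interval -0.84 to 0.47). AHR differed by 0.06, 0.15 and -0.32, with a group difference of -0.04 ± 0.15 (interval -0.38 to 0.31). ARNT differed by 0.32, 0.33 and 0.09, so it was higher in 3 of 3 numbers. How many of all genes ran 1 way in 3 of 3 numbers was not counted.

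ARNT alone among the 4 genes did not overlap between the doses: its lowest array at 250 µg/ml (6.90) lay above its highest at 100 µg/ml (6.84). Groups did not overlap between the doses in 6.17% of all genes, 3.32% higher and 2.86% lower at 250 µg/ml. The ARNT difference of 0.25 ± 0.14 had an interval of -0.06 to 0.56 and a limma adjusted p of 1.0. In the order of group means, CYP1A1 and CYP1B1 both ran from vehicle through 250 µg/ml to 100 µg/ml. AHR ran from 250 µg/ml through 100 µg/ml to vehicle, and ARNT from vehicle through 100 µg/ml to 250 µg/ml. In these orders the neighbours 250 and 100 µg/ml overlapped for CYP1A1, CYP1B1 and AHR, and the neighbours vehicle and 100 µg/ml overlapped for ARNT.

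The target genes also moved together over the treated arrays, but not within the controls. With vehicle, CYP1A1 was nearly flat and lowest on array 3 at 2.65, where CYP1B1 was highest at 9.09. CYP1B1 had the highest Pearson correlation with CYP1A1 of any gene over the 9 arrays, at 0.975, and it was 0.915 over the 6 treated arrays alone. AHR correlated with CYP1A1 at -0.82 over 9 arrays but at 0.64 over the 6 treated arrays, and with CYP1B1 at -0.78 and 0.77. The correlations over 9 arrays include the distance between treated and control arrays. Those over the treated arrays include the arrays numbered 3, where CYP1A1 and CYP1B1 were highest at both doses and AHR was highest at 100 µg/ml. All points share array, normalization and dose group, and these values are descriptions.

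After CYP1B1, the genes most like CYP1A1 were MLEC, which encodes an ER protein that binds glucosylated N-glycans (r = 0.968), and the neutral amino acid transporter gene SLC1A4 (r = 0.964). MLEC differed from vehicle by 0.90 at 100 µg/ml and 0.94 at 250 µg/ml, and SLC1A4 by 1.09 and 1.02, so both spanned smaller differences than CYP1A1. Most like CYP1B1 were CACNA2D1, an auxiliary subunit gene of voltage-gated calcium channels (r = 0.988), CYP1A1, and the fatty aldehyde dehydrogenase gene ALDH3A2 (r = 0.969). CACNA2D1 had 5.07, 4.96 and 5.39 with vehicle, 5.99, 5.97 and 6.67 at 100 µg/ml, and 6.02, 6.06 and 6.28 at 250 µg/ml. As for CYP1B1, array 3 was the highest in each group.

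Most like AHR was PTGIS, which encodes prostacyclin synthase, itself a P450 protein (r = 0.974). PTGIS was at 8.82, 9.21 and 8.72 with vehicle, at 7.25, 7.22 and 8.19 at 100 µg/ml, and at 7.16, 7.34 and 7.59 at 250 µg/ml, with no overlap between either dose and the controls. Its differences of -1.37 and -1.56 had limma adjusted p of 0.15 and 0.051. RAB33A, a small GTPase gene (r = 0.972), and SLC44A5 (r = 0.966) followed. The genes most like ARNT were GPR20 (r = 0.966), HIPK1 (0.923) and RAPGEF1 (0.914). GPR20 lay at 2.30 to 2.64, below the lower quartile on every array, and its correlation was 0.655 after quantile normalization. After that scaling GPR20 ranked 538 for ARNT, SLC1A4 ranked 15 for CYP1A1 and SLC44A5 ranked 15 for AHR.

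**Figure D3:**
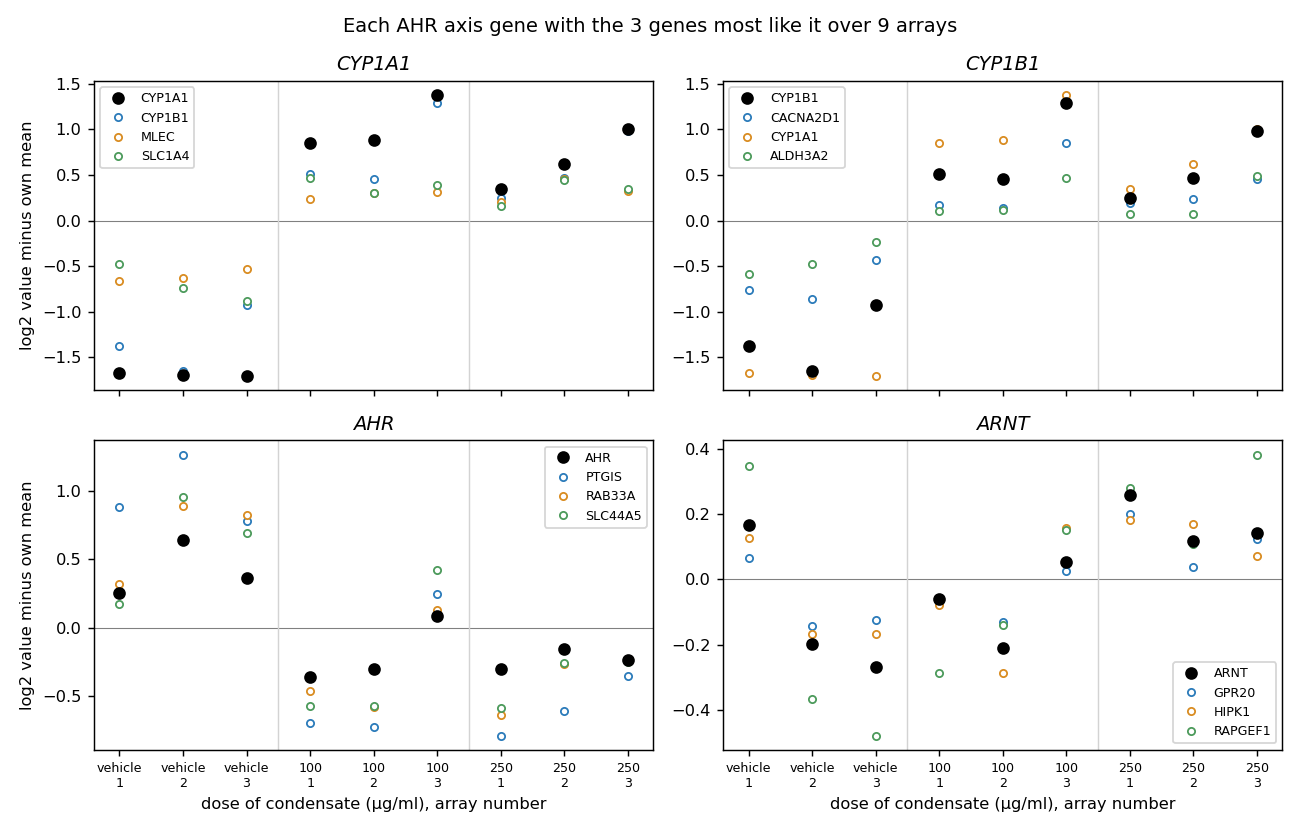
Log2 value minus the gene's own mean over 9 arrays (y axis) for each AHR axis gene (black) and the 3 genes with the highest correlation with it (open circles), on each array ordered by dose and array number (x axis). CYP1A1 and CYP1B1 peak on array 3 of each dose, and AHR and PTGIS are both higher on CSC_100 replicate 3 than on the other treated arrays.

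The remaining question was whether other parts of the pathway moved with CYP1A1 and CYP1B1. Another 33 cytochrome P450 genes, taken by a symbol of CYP, number, letter and number, were measured alone. This leaves out PTGIS, whose symbol differs. Of the 33 genes 0 passed the limma threshold at either dose, where 0.0633% and 0.549% of all genes did, and 5 had an unadjusted p under 0.05 at each dose. Over all genes 14.6% had an unadjusted p under 0.05 at 100 µg/ml and 16.6% at 250 µg/ml, so 5 of 33 is near the background, and the unadjusted counts of the lists that follow are to be read against the same shares. Of the 33 genes, 11 lay below the lower quartile on every array and 4 above the array median on every array. Their median difference was -0.08 at 100 µg/ml and -0.07 at 250 µg/ml, beside -0.05 and -0.04 over all genes. The differences ran from -0.68 to 0.51 and from -0.84 to 0.57, all below those of CYP1A1 and CYP1B1. CYP1A2, the third CYP1 enzyme and a classical AHR target of liver, had 3.22, 3.28 and 3.42 with vehicle, 3.72, 3.00 and 3.25 at 100 µg/ml, and 3.35, 3.23 and 3.03 at 250 µg/ml. Its groups overlapped, with differences of 0.02 ± 0.18 and -0.10 ± 0.18. The vitamin D hydroxylase gene CYP24A1 had the smallest p of the 33 at both doses, with differences of -0.68 ± 0.21 and -0.84 ± 0.21 (limma adjusted p = 0.24 and 0.11). CYP24A1 passed at 250 µg/ml once array 3 of each dose was dropped (-1.02, limma adjusted p = 0.044), which makes 1 of the 33 genes. The next smallest p belonged to CYP39A1, an oxysterol hydroxylase gene, at 100 µg/ml (-0.26, limma adjusted p = 0.26) and to CYP4V2, a fatty acid hydroxylase gene of the pigment epithelium, at 250 µg/ml (0.57, 0.15).

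Other AHR targets, a list of 21 genes from xenobiotic metabolism, growth control and tryptophan metabolism, were represented by 14 genes measured alone. Of these 0 passed at either dose, with 2 and 1 at an unadjusted p under 0.05, no more than the background. The median differences were -0.16 and -0.15. Of the 14 genes, 4 lay below the lower quartile on every array and 3 above the array median on every array. The large amino acid transporter gene SLC7A5 had the smallest p. It was at 9.30, 9.73 and 9.02 with vehicle, at 9.90, 9.89 and 9.96 at 100 µg/ml, and at 9.76, 9.80 and 10.1 at 250 µg/ml. Neither dose overlapped the controls, and the differences of 0.56 ± 0.18 and 0.53 ± 0.18 had limma adjusted p of 0.24 and 0.21. ABCG2, a drug efflux transporter gene, differed by 0.86 ± 0.42 at 250 µg/ml (limma adjusted p = 0.35), and KYNU, which encodes kynureninase, by -0.26 ± 0.10 at 100 µg/ml (0.30). KYNU lay below the lower quartile on every array, so its difference is one between values at the low end of the scale. The target genes NQO1, UGT1A1, UGT1A6, GSTA1, GSTA2, NFE2L2 and SERPINB2 were not measured alone.

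Enzymes that process oxidised hydrocarbons, listed with the P450 reductase POR, held the largest positive differences among the 6 lists beside the axis. The median differences of this list were only -0.03 at 100 µg/ml and 0.05 at 250 µg/ml. Its differences ran from -0.42 to 1.81 and from -0.49 to 1.78, with 4 and 6 of 10 genes above 0. Of 19 listed genes 10 were measured alone and 0 passed at either dose, with 2 and 4 at an unadjusted p under 0.05. EPHX1, the microsomal epoxide hydrolase that acts on CYP1 products, was at 6.56, 5.74 and 6.80 with vehicle, at 7.39, 7.30 and 7.38 at 100 µg/ml, and at 7.87, 7.56 and 7.95 at 250 µg/ml. Neither dose overlapped the controls, nor did the doses overlap each other. Its difference was 0.99 ± 0.25 at 100 µg/ml (limma adjusted p = 0.20) and 1.42 ± 0.25 at 250 µg/ml (0.052).

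POR, the reductase that supplies electrons to microsomal P450 enzymes, was at 5.88, 6.27 and 6.17 with vehicle, at 6.22, 6.27 and 7.06 at 100 µg/ml, and at 7.01, 7.42 and 7.37 at 250 µg/ml. At 250 µg/ml all arrays lay above the controls, with a difference of 1.16 ± 0.24 (limma adjusted p = 0.069). At 100 µg/ml POR overlapped the controls, and between 250 and 100 µg/ml it differed by 0.75 ± 0.24 (limma adjusted p = 1.0), with CSC_100 replicate 3 above the lowest array at 250 µg/ml. AKR1C3, an aldo-keto reductase gene, differed by 1.81 ± 0.55 at 100 µg/ml (limma adjusted p = 0.22) and by 1.78 at 250 µg/ml. These were the largest differences of the list at each dose, and neither dose overlapped the controls. EPHX1 passed at 250 µg/ml without control replicate 2 (1.11, adjusted p = 0.037) or control replicate 3 (1.64, 0.025). It also passed with arrays centred on their median (0.041), without dim genes (0.022), with the replicate block (0.040), with an intensity trend (0.036) and with array weights (0.035). POR passed without CSC_100 replicate 3 (1.16, adjusted p = 0.035), with arrays centred on their median (0.043), without dim genes (0.043) and with array weights (0.047). In every other alternative setting EPHX1 and POR missed the threshold at 250 µg/ml. Those settings include quantile normalization, unmoderated variance and only the 6 arrays compared.

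The cytosolic complex and the coactivators of AHR had 8 of 14 genes measured alone, of which 0 passed at either dose and 2 had an unadjusted p under 0.05 at each. HSP90AB1 and PTGES3, whose products hold AHR in its cytosolic complex, were not among the 8. HSP90AA1, named here after its values were seen, was among them, with differences of 0.60 and 0.66, the highest of the list. Its unadjusted limma p was not under 0.05 at either dose. Median differences of the list were 0.22 and 0.26, with 6 of 8 genes above 0 at each dose. MED1, a Mediator subunit gene, differed by 0.50 ± 0.13 and 0.54 ± 0.13 (limma adjusted p = 0.20 and 0.092), and the tyrosine kinase gene SRC, whose product is found in the AHR complex, by -0.83 ± 0.27 and -0.85 ± 0.27 (0.25 and 0.18). Of 15 other bHLH-PAS genes, relatives of AHR and ARNT in hypoxia and circadian control, 0 passed, 1 and 0 had an unadjusted p under 0.05, and the medians were 0.03 and -0.02. BMAL2 had the smallest p, with differences of 0.82 ± 0.32 and 0.70 ± 0.32 (limma adjusted p = 0.31 and 0.32). Of 16 PARP family genes beside TIPARP 0 passed and 4 and 3 had an unadjusted p under 0.05, with medians of 0.11 and 0.12. PARP1, the main DNA damage sensor of the family, differed by 0.84 ± 0.23 and 0.76 ± 0.23 (limma adjusted p = 0.21 and 0.17), and ZC3HAV1 by 0.88 ± 0.23 and 0.74 ± 0.23 (0.21 and 0.18).

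**Figure D4:**
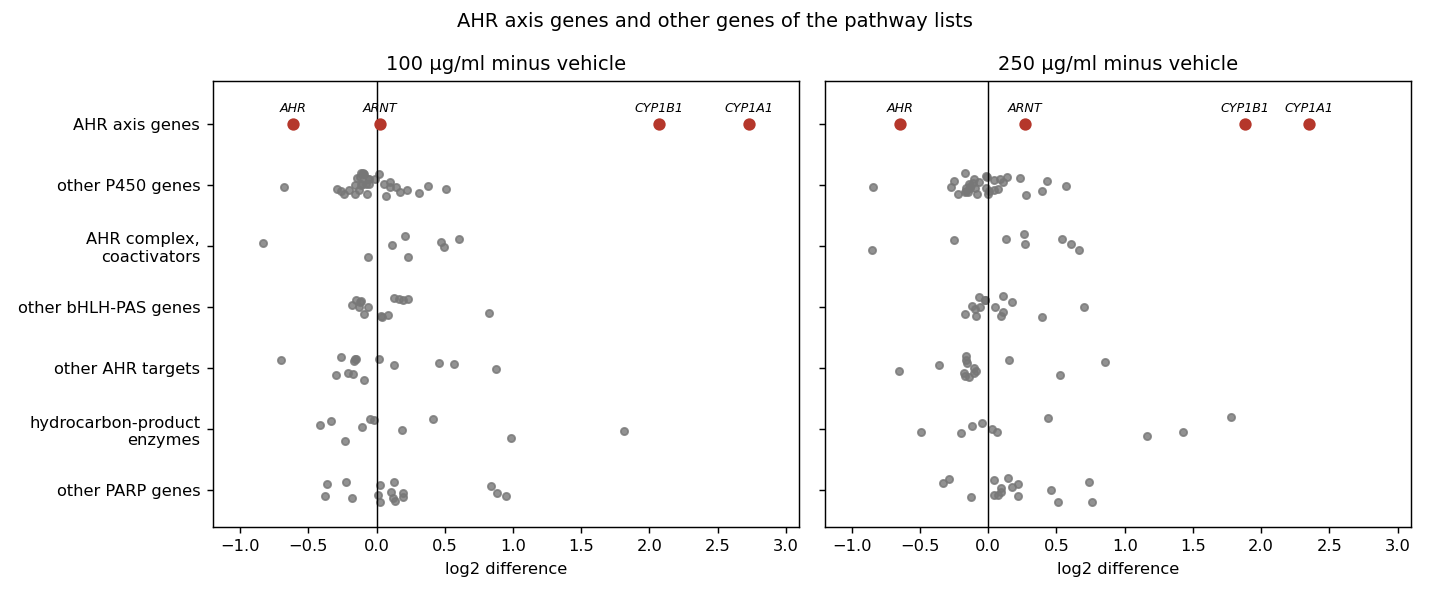
Log2 difference of each gene (x axis) at 100 µg/ml minus vehicle (left) and 250 µg/ml minus vehicle (right), with the 4 AHR axis genes in red and every measured gene of 6 other lists in grey, 1 list per row and points spread vertically only to separate them. CYP1A1 and CYP1B1 lie to the right of all 33 other P450 genes taken by CYP symbol at both doses. The nearest grey points belong to hydrocarbon-product enzymes.

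The pigment epithelium marker list differed in its sum between dose groups, narrowly and with no marker past the threshold. The log2 values of the 13 measured markers summed to between 67.7 and 71.8 with vehicle, 65.2 and 67.3 under 100 µg/ml, and 65.2 and 67.6 under 250 µg/ml, so neither dose overlapped the controls. Of these 13 markers 0 passed with limma at either dose, with 3 and 2 at an unadjusted p under 0.05 (14.6% and 16.6% of all genes), and 1 and 3 had a difference above 0. Sums of the 5 Müller glia and astrocyte markers covered 16.62 to 17.08 with vehicle, 16.24 to 16.61 under 100 µg/ml and 16.05 to 16.60 under 250 µg/ml, just short of overlap. RLBP1, which is also on the pigment epithelium list, had the lowest differences of the glial list (-0.22 and -0.37). The sums of these lists are therefore not independent. Sums of the 5 endothelial markers covered 13.91 to 14.36 with vehicle, 13.41 to 14.15 under 100 µg/ml and 13.64 to 13.87 under 250 µg/ml, so the higher dose alone was clear of the controls. Those of 5 photoreceptor markers covered 16.21 to 16.35 with vehicle, 15.13 to 16.20 under 100 µg/ml and 15.52 to 16.41 under 250 µg/ml, so the lower dose alone was clear of them. The sums of 5 leukocyte and 6 fibroblast markers overlapped the controls at both doses. All 6 fibroblast markers nevertheless had differences below 0 at both doses, with medians of -0.29 and -0.22. Among them PDGFRB, named here after its values were seen, differed by -1.005 at 100 µg/ml and -0.99 at 250 µg/ml, and the collagen gene COL1A1 by -0.93 and -1.01, which is more than any pigment epithelium marker. Neither PDGFRB nor COL1A1 had an unadjusted limma p under 0.05 at either dose. None of these other cell type markers passed with limma, and 0 to 2 per list had an unadjusted p under 0.05. The sums were compared as deposited, where the median difference over all genes was -0.05 at 100 µg/ml and -0.04 at 250 µg/ml. Each marker list also held genes below the lower quartile on every array. The part of these markers in the results of the AHR axis was not tested.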

How the data were processed

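Per the labels' protocols, total RNA of 9 samples was hybridised to Affymetrix whole-transcript arrays. The authors deposited log2 values, 1 per probe set, and RMA, Partek and hg18 are named per the submitters' processing notes. No source used here gives tool versions, what each tool did or how probes were filtered. RMA normalizes arrays together and compresses fold changes of dim genes. No detection calls were used, and the number of arrays limits the precision.

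Of 17629 probe sets, 14378 named 1 gene, 2405 several and 846 none. Gene numbers were matched to current RefSeq symbols (GRCh38.p14), and 28 found no match. Of 169 genes with several probe sets the one with the highest mean was kept, leaving 14207 genes.

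For the tests, limma 3.58.1 (R 4.3.3) estimated a mean for each group from the 9 arrays jointly. Variances were moderated by its default empirical Bayes step, p-values were adjusted over all genes by Benjamini-Hochberg, and the threshold was 0.05. The fit was tested on simulated data whose noise was independent between arrays, unlike that of the same-numbered treated arrays here. The members and lists were chosen with earlier results of these data known. The rule for naming genes allowed the 4 measured members, up to 4 genes per list and comparison past the threshold or else the 2 with the smallest p, CYP1A2, HSP90AB1 and PTGES3, and the 3 genes with the highest Pearson correlation with each member over the 9 arrays. Not all genes it allows are named. Some markers are named only to describe their level. HSP90AA1 is named, and POR and EPHX1 are set out by array, after their values were seen. Between either dose and the controls same-numbered arrays correlated at -0.14 to 0.26, so no pairing was assumed there. Alternatives were other scalings, probe set choices, filters, variance models, array weights, a replicate block and arrays left out.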

Additional observations from a re-analysis of the deposited data

How the results depend on the processing

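At 100 µg/ml against vehicle, 1 of the 4 genes passed as reported, and 2 passed with arrays centred on their median, with the replicate block, with an intensity trend, with array weights and when array 3 of each dose was dropped, while 0 passed with unmoderated variance; with single arrays left out the count was 1 to 2. At 250 µg/ml against vehicle 2 passed as reported, 1 passed without dim genes, which removes CYP1A1 from the fit, and 0 passed with only the 6 arrays compared or with unmoderated variance; with single arrays left out it was 1 to 2. Between the doses 0 passed in every setting tried. CYP1A1 kept its call with each of 9 arrays left out, at adjusted p of 0.0047 to 0.045 for 100 µg/ml and 0.0072 to 0.044 for 250 µg/ml, and lost it with unmoderated variance (0.082 and 0.061) and, at 250 µg/ml, with only the 6 arrays compared (0.060). CYP1B1 at 100 µg/ml passed with the replicate block (adjusted p = 0.0090), but array numbers were not taken to pair treated and control arrays. For 250 against 100 µg/ml the block changed no call of the 4 genes. Differences near 0 changed sign. For ARNT at 100 µg/ml the value was -0.0417 after quantile normalization, -0.0544 with array weights and -0.0358 without the arrays numbered 3, and leaving out single arrays gave -0.0568 to 0.160. For 250 against 100 µg/ml, AHR had 0.0695 with array weights and 0.106 without the arrays numbered 3, and leaving out single arrays gave -0.122 to 0.103; for CYP1B1 it gave -0.393 to 0.0819. CYP1A2 at 100 µg/ml had -0.237 with array weights, and leaving out single arrays gave -0.179 to 0.179. Over all alternatives 0 to 73 genes passed at 100 µg/ml (9 as reported) and 1 to 296 at 250 µg/ml (78 as reported). The median of all genes stayed within 0.08 log2 units of 0 as deposited, with arrays centred and after quantile normalization.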
